A study of Mus musculus with 6 samples.

Results

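The genes described here are the small nuclear and small nucleolar RNA genes detected in the mouse testis after fecal microbiota transplantation (FMT). They were chosen by a rule on biotype and level: the gene table had to call the gene snRNA, snoRNA or scaRNA, and its FPKM had to average at least 1 over the 6 libraries. FPKM is the number of sequenced fragments per kilobase of gene, scaled to library size. This selected 67 of the 2943 genes of these biotypes, in a table of 54532 genes: 27 of 1385 snRNA genes, 37 of 1507 snoRNA genes and 3 of 51 scaRNA genes. All 67 therefore also passed the filter on low values used for testing, since it is the same mean FPKM of 1 that 15206 genes of any biotype reached.

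The recipients were male C57BL/6 mice that entered at 3 weeks of age, shared cages for 2 weeks and then received fecal microbiota by gavage of 200 ul, 3 times a week for 10 weeks, with no antibiotic beforehand. The control-FMT group (3 mice, numbered 16, 19 and 21) was given microbiota of donors that drank water. The alcohol-FMT group (3 mice, numbered 18, 24 and 31) was given microbiota of donors that drank 10% ethanol, for 8 weeks by the series description and for 10 weeks by the study's methods. The recipients themselves drank distilled water, and each library is total RNA of the testis of 1 mouse made into cDNA with an Illumina TruSeq RNA kit.

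Small nuclear RNAs (snRNAs) form the RNA core of the spliceosome, which removes introns from pre-mRNA: U1 and U2 recognise the intron, and U4, U6 and U5 join before catalysis. Small nucleolar RNAs (snoRNAs) guide chemical changes of ribosomal and spliceosomal RNA. Those with C and D boxes guide 2′-O-methylation, those with H and ACA boxes guide pseudouridylation, and small Cajal body RNAs (scaRNAs) guide the same changes on snRNAs. In mammals most snoRNAs are cut out of introns of host genes, whereas the genome also holds a great many copies of snRNA genes, most of which are regarded as pseudogenes. Mature snRNAs and snoRNAs carry no poly(A) tail.

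The sequences below show what kind of gene carried the values. The first 3 resemble Rnu6, the reference U6 snRNA gene: the pair of highest members and a member that was lower in the alcohol-FMT group. Capitals mark the ACAGAGA box, which pairs with the intron start in U6, where it is whole. Sequences are GENCODE M21 transcripts of the mouse build GRCm38, written 5′ to 3′ on the strand of the gene.
Gm25493: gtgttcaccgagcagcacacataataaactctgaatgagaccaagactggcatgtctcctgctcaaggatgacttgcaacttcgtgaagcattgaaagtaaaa
Gm25047: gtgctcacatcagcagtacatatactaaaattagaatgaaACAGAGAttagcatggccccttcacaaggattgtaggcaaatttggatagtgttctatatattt
Gm25596: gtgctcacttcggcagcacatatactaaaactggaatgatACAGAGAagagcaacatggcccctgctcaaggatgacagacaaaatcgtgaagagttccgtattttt
Gm25493 (chr1:4723277-4723379, minus strand, outside genes) matched Rnu6 at 76.5% over 85 aligned bases by BLAST, and Gm25047 (chrX:36363899-36364002, plus strand, outside genes) at 78.5% over 107. Gm25596 (chr10:29349585-29349691, plus strand, in the Rnf146 gene but on the other strand) matched at 88.8% over 107 bases. The ACAGAGA box is whole in Gm25047 and Gm25596 and broken in Gm25493.

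Gm22106, the member with the smallest p, matched none of the 171 named small RNA genes. Those hold no Rnu4 gene, so a likeness to the U4 snRNA could not show in that search. Capitals mark the stretch in which it matched its closest gene, the snRNA gene Gm25135, at 92.4% over 66 bases. It lies at chr15:73729164-73729290 on the plus strand, in an intron of Ptp4a3 on the same strand, and RefSeq (GRCm38.p6) lists it as a pseudogene.
Gm22106: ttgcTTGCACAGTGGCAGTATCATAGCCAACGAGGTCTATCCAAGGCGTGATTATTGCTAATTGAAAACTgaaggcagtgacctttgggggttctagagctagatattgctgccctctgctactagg

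The snoRNA members are shown by 3 C/D box RNAs, with the C box (TGATGA in the first 25 bases) and the D box (CTGA in the last 15) in capitals, and by Gm23609, with capitals at the bases identical to the H/ACA box gene Snora17. In Snord49b 2 overlapping copies of TGATGA run together.
Snord104: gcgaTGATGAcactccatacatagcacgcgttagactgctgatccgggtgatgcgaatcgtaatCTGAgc
Snord49a: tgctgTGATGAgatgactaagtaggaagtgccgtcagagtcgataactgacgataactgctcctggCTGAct
Snord49b: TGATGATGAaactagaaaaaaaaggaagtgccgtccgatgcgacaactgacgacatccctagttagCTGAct
Gm23609: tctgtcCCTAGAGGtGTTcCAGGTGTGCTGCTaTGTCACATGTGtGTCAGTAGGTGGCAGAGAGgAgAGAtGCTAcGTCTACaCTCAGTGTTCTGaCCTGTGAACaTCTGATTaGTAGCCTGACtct
Snord104 is at chr11:106500993-106501062 on the plus strand, Snord49a at chr11:62603450-62603521 and Snord49b at chr11:62603079-62603150, both on the plus strand. Gm23609 is at chr9:78013972-78014098 on the minus strand, outside genes, and matched Snora17 at 86.2% over 123 bases. Searched on the gene's own strand, TGATGA stood in the first 25 bases of 7 of 37 snoRNA members (18.9%) and of 329 of all 1507 snoRNA genes (21.8%), and CTGA in the last 15 bases of 15 members (40.5%) and of 473 genes (31.4%). Those 15 include Gm23609 and Snora17, so CTGA alone does not mark a C/D box gene. ACA stood near the end of 18 snoRNA members (48.6%) and of 668 snoRNA genes (44.3%), but not of Gm23609. ACAGAGA stood in 9 of the 17 members that resemble Rnu6 or Rnu6-ps2 (52.9%) and in 578 of the 958 genes that do so (60.3%).

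The 67 members were short and rested on few fragments. Their lengths ran from 63 to 158 bases, and 63 of them were no longer than the mean insert of 150 bp that the study states. Multiplied by gene length, every deposited FPKM value was a whole number of fragments within 0.01, so that the fragments could be read back. At 107 bases, the median length of the snRNA members, 1 FPKM stood for 1.80 to 1.99 fragments in a library, against 33.7 to 37.3 at 2000 bases. The members held 2150 fragments over the 6 libraries, of 4030 in all genes of these biotypes and of 16504096 to 18633124 fragments in genes per library. An average of under 5 fragments per library lay behind 47 members, and 10 or more behind 8, which together took 39.6% of the member fragments. At least 1 library was at 0 in 25 members.

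**Figure D1:**
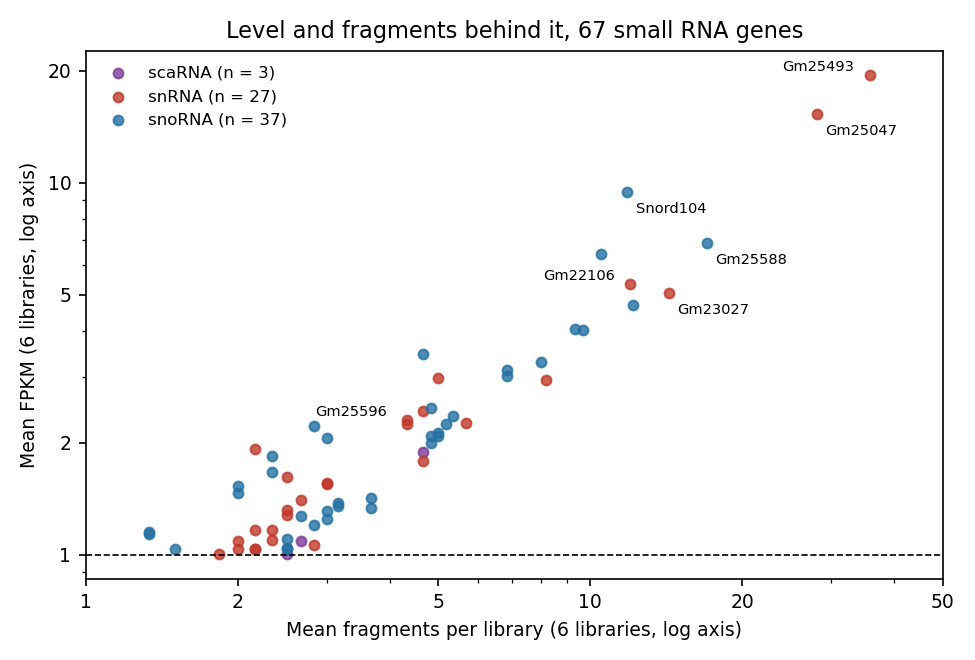
Mean FPKM against mean fragments per library, on log axes, for the 67 small RNA genes, with each point a gene coloured by biotype and the dashed line at the FPKM of 1 used to choose them. Only 8 points lie at 10 or more fragments, and Gm25493 and Gm25047 stand above the rest at 35.8 and 28.2 fragments.

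The threshold cut through genes with almost the same values. The 3 members just inside it were Gm22654, Gm24644 and Gm25637, at mean FPKM of 1.01, 1.01 and 1.03. The 3 genes just outside were Snord71 at 0.9996, with 1.5 fragments per library on average, Gm25995 at 0.994 and Gm25970 at 0.990. Without its library of highest value, 20 of the 67 members fell below 1. In 18 members 1 group averaged under 1 FPKM, 10 with the control-FMT group above it and 8 with the alcohol-FMT group above it; those members entered through the group in which they were high and had to differ between the groups, so the counts over all members below are a description.

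The snRNA members resembled the standard snRNA genes without being them. None carries a U-number symbol, and all 27 are predicted genes with Gm symbols. Of the snoRNA members 8 carry a Snord and 4 a Snora symbol, and 25 are predicted genes. The 3 scaRNA members are predicted genes as well. Of the 27 snRNA genes, 17 resembled Rnu6 or Rnu6-ps2, at 75.0 to 96.3% identity (median 81.3%) over the aligned part, and are called Rnu6-like here. Gm24060 and Gm23205 matched Rnu6-ps2, over 60 and 91 bases. Some matches were partial, as in Gm24776, which aligned over 58 of its 86 bases. A further 4 resembled U1 genes, at 74.5 to 82.5%. Another, Gm25703, matched Rnu12, the U12 RNA of the minor spliceosome, at 95.4% over 151 bases. Rnu12 is its 1 near-identical gene, with which it may share reads. Gm27343 matched Rnu7, the U7 RNA of histone pre-mRNA processing, at 88.7%. The snRNA genes with Rnu symbols themselves, looked at after their values were known, were at or near 0: 4 of 11 had any fragment, 9 fragments in all. Rnu6 had 1 fragment in control-FMT 16 and 0 in the other 5 libraries, and Rnu1a1, Rnu2-10 and Rnu5g stayed under 1 FPKM in every library. Rnu6 has 202 near-identical genes, Rnu1a1 23, Rnu2-10 12 and Rnu5g 2, and Rnu7 and Rnu11 overlap an exon of another gene. The part of such copies and overlaps in these low counts was not tested. Rnu73b, which has the snoRNA biotype, had 4 fragments in control-FMT 21, 3 in alcohol-FMT 24 and 0 in the other 4 libraries, a mean of 0.932 FPKM. A count of 0 fragments in a library allows for up to 3 at this depth. None of the 9 Scarna genes was a member.

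Genes with a near-identical copy, at 95% identity or more over at least 90% of the length, had fragments in 131 of 764 cases (17.1%) and those without one in 504 of 2179 (23.1%), and 6 of the 67 members have such a copy. Genes that overlap an exon of another gene had fragments in 11 of 222 cases (4.95%) and gave 0 members. Genes inside another gene but clear of its exons had fragments in 418 of 1318 cases (31.7%), and those outside genes in 206 of 1403 (14.7%). How reads with several matching places or in overlapping exons were counted is not given in the sources used here, and its part in these counts was not tested.

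The tissue label was checked by markers: all 5 spermatid markers (Acrv1, Tnp1, Tnp2, Prm1 and Prm2), all 3 spermatocyte markers and all 4 Leydig cell markers averaged at least 1 FPKM. The summed level of the spermatid markers was 13876 to 16530 FPKM in the control-FMT libraries and 14323 to 21527 in the alcohol-FMT libraries. Of 5 epididymis markers 1 reached 1 FPKM, and their sum was 1.33 to 1.94 and 0.833 to 4.88 FPKM. The groups overlapped in both sums.

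The total over the small RNA genes overlapped between the groups. The 2943 genes took 35.9, 42.9 and 45.8 fragments per 1000000 fragments in genes in control-FMT 16, 19 and 21, and 31.8, 34.5 and 36.9 in alcohol-FMT 18, 24 and 31. For the 67 members the values were 19.2, 21.8 and 23.6 against 17.8, 18.4 and 20.8. In each case the highest alcohol-FMT library lay above the lowest control-FMT library. In bulk testis RNA, fewer cells of a type and less RNA per cell cannot be told apart, here or in the values that follow.

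Across genes, no member passed the test. Groups were compared with limma on log2(FPKM + 1), and fold changes are given on that scale, which understates changes of low genes. At an adjusted p under 0.05 limma called 0 of the 67 members and 0 of all 15206 genes (0%). At an unadjusted p of up to 0.05, 1 member was higher in the alcohol-FMT group (1.49% of 67, against 4.93% of all genes) and 6 were lower (8.96%, against 2.34% of all genes). By limma-voom on the fragments 0 members were higher (4.35% of all genes) and 2 lower (2.97% of all genes) at that p, and 0 members and 0% of genes passed the adjusted p. The median log2 fold change of the members was -0.09, beside 0.01 for all genes. It was -0.01 for the 27 snRNA genes, -0.17 for the 37 snoRNA genes and 0.11 for the 3 scaRNA genes. The count of higher members turned on single libraries, as did that of all genes. It was 3 without alcohol-FMT 18 and 3 without control-FMT 19, where 12.2% and 2.70% of all genes were higher. It was 2 without alcohol-FMT 24 and 2 without control-FMT 21, beside 3.16% and 2.99% of all genes, and 0 without alcohol-FMT 31, beside 3.91%. Groups did not overlap in 1 member that was higher (7.76% of all genes) and in 5 that were lower (5.33% of all genes).

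**Figure D2:**
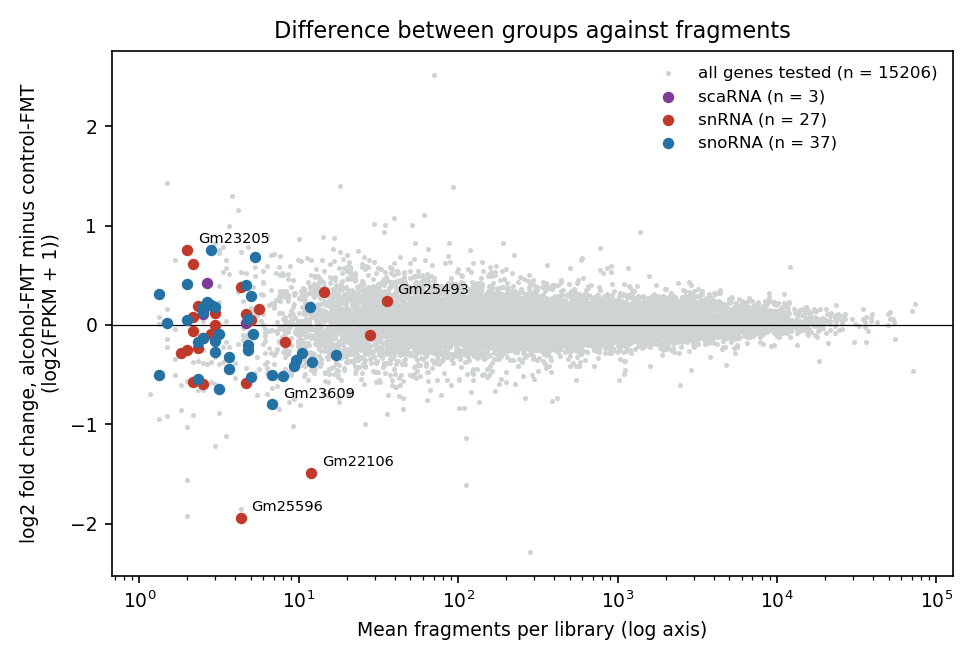
Log2 fold change (alcohol-FMT minus control-FMT, log2(FPKM + 1)) against mean fragments per library on a log axis, with grey points for the 15206 genes tested and coloured points for the 67 small RNA genes. Most small RNA genes lie at the low end of the fragment axis, and Gm22106 at -1.49 and Gm25596 at -1.94 lie apart from the rest of them.

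Gm22106 and Gm25596 were lower in every alcohol-FMT library than in any control-FMT library. Gm22106 held 16, 19 and 21 fragments in the control-FMT libraries and 4, 6 and 6 in the alcohol-FMT libraries, or 6.96, 8.35 and 9.76 against 1.87, 2.54 and 2.57 FPKM. Its mean was 8.36 ± 1.4 FPKM (SD, n = 3) in control-FMT and 2.33 ± 0.40 (SD, n = 3) in alcohol-FMT. The gap between the groups was wider than the range of either. Its log2 fold change was -1.49 (SE 0.14), the smallest p of all 15206 genes (1.18e-05), with an adjusted p from limma of 0.18. Scaled for library size, 56 fragments against 16 gave a ratio of 0.281 with an exact 95% interval of 0.150 to 0.497, which covers counting error only. The spread of its fragments within groups was 0.336 times what counting alone gives, so the limma p rests on replicates closer together than counting error would place them. By limma-voom, which models that error, the log2 fold change was -1.74 with p of 0.00103 and an adjusted p of 0.58.

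Ptp4a3, which encodes a protein tyrosine phosphatase and holds Gm22106 in an intron, did not move with it. Its FPKM was 5.72, 4.59 and 5.02 in the control-FMT libraries and 4.27, 6.54 and 6.21 in the alcohol-FMT libraries. The groups overlapped, with a log2 fold change of 0.11 (SE 0.15) and an adjusted p from limma of 0.90. The FPKM of Gm22106 averaged 8.36 against 5.11 for Ptp4a3 in control-FMT, and 2.33 against 5.68 in alcohol-FMT. As both lie on the same strand, fragments of Gm22106 and of unspliced Ptp4a3 RNA cannot be told apart.

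Gm25596, the Rnu6-like gene shown above, had 5, 10 and 9 fragments in control-FMT and 1, 0 and 1 in alcohol-FMT. In FPKM these were 2.58, 5.22 and 4.96 against 0.554, 0 and 0.509. It is one of the members that passed only through the control-FMT group, so some difference in this direction was built into its choice. The log2 fold change was -1.94 (SE 0.26), the fourth smallest p of all genes, with an adjusted p from limma of 0.44. The ratio of 2 to 24 fragments, scaled, was 0.082 with an exact 95% interval of 0.00939 to 0.330. Rnf146, which encodes a ubiquitin ligase and lies across it on the other strand, was at 3.64, 3.53 and 3.32 against 3.29, 3.86 and 4.30 FPKM, with overlapping groups and an adjusted p from limma of 0.88. Whether counting used the strand is not given in the sources used here. Of the 17 Rnu6-like members the groups stood apart in FPKM in 3, lower in Gm25596 and Gm24776 (5.33% of all genes) and higher in Gm25493 (7.76% of all genes), and the median log2 fold change of the 17 was -0.01.

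The other lower members rested on fewer fragments or smaller gaps. Gm23609, the Snora17-like gene, had 7, 13 and 8 against 4, 5 and 4 fragments, a log2 fold change of -0.80 (SE 0.18) and an adjusted p from limma of 0.55. Gm22806, which matches the H/ACA box gene Snora2b at 92.0% and lies in Cks2, had 10, 10 and 9 against 4, 8 and 7 fragments, with -0.52 (SE 0.15), though it has 2 near-identical genes with which it may share reads. Gm24776, another Rnu6-like gene, had 5, 3 and 2 against 1, 2 and 2. All 3 had groups that did not overlap in FPKM, although those of Gm24776 met at 2 fragments before scaling. The exact intervals of the scaled fragment ratio were 0.217 to 0.911, 0.341 to 1.19 and 0.132 to 1.58, and the last pair include 1. Gm24776 no longer reached the unadjusted p without alcohol-FMT 18, control-FMT 16 or control-FMT 19 (p of 0.0918, 0.0829 and 0.0577, limma), and by limma-voom none of the 3 did (p of 0.0516, 0.154 and 0.208). Snord49b, which is named after its values were seen, had 2, 3 and 4 against 2, 2 and 1 fragments and an unadjusted p of 0.0464, with an interval of 0.144 to 1.82, and it missed that p without alcohol-FMT 24 or 31 or without control-FMT 19 or 21 (p of 0.0604, 0.148, 0.0961 and 0.147, limma).

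**Figure D3:**
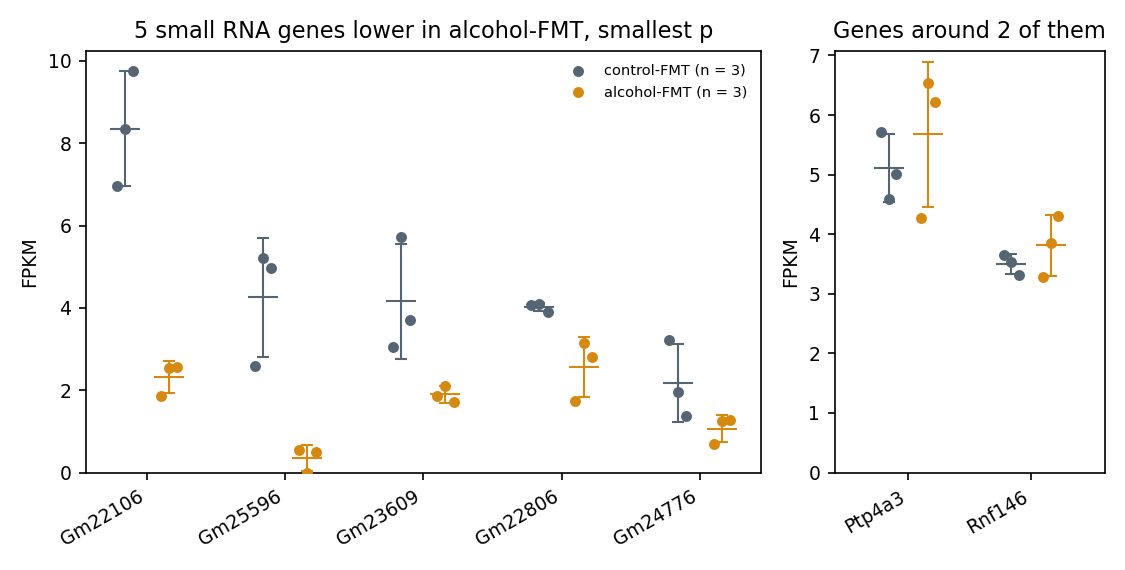
FPKM in each library (points), with the mean and SD of 3 libraries as bars, for the 5 lower small RNA genes of smallest p on the left and for Ptp4a3 and Rnf146, the genes around the first 2 of them, on the right. Control-FMT and alcohol-FMT points do not overlap in the left panel, and they overlap in the right panel.

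Higher members were fewer and less distinct. Gm23205, an Rnu6-like gene in Rnf14, had 0, 1 and 2 fragments in control-FMT and 2, 2 and 5 in alcohol-FMT, so that the groups met at 2 fragments. Its log2 fold change was 0.76 (SE 0.32), with an unadjusted p of 0.0499 that sits on the threshold, an adjusted p from limma of 0.69 and a scaled ratio of 2.95 whose exact interval, 0.736 to 16.9, includes 1. It too passed only through 1 group, here the alcohol-FMT group, and its limma p was 0.162 without alcohol-FMT 31, 0.149 without control-FMT 16 and 0.0897 without control-FMT 19. Gm26397, a predicted snoRNA gene in Tomm20, had 1, 0 and 4 against 5, 4 and 3 fragments. Snora78, an H/ACA box snoRNA in the noncoding host gene Snhg9, had 5, 1 and 5 against 10, 6 and 5, with a scaled ratio of 1.88 and an exact interval of 0.865 to 4.31. Gm24682, a predicted scaRNA gene, had 0, 3 and 3 against 2, 3 and 5. Neither Gm26397, Snora78 nor Gm24682 reached an unadjusted p of 0.05, although Gm26397 did so without control-FMT 21 (limma p of 0.0015). Gm26397 and Gm24682 also passed only through the alcohol-FMT group, with control-FMT means of 0.724 and 0.838 FPKM. Some difference in this direction was thus built into their choice, and that p gives no support for it.

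The pair of highest members, both Rnu6-like, had the most fragments and no difference past the test. Gm25493 was at 17.7, 19.5 and 16.0 FPKM in control-FMT and 19.6, 19.8 and 24.3 in alcohol-FMT. The groups touched without overlapping, by 33, 36 and 28 against 34, 38 and 46 fragments before scaling, where they did overlap. Its log2 fold change was 0.24 (SE 0.11) with an adjusted p from limma of 0.69, and the scaled ratio was 1.2 with an exact interval of 0.907 to 1.58. Without alcohol-FMT 18 or without control-FMT 19 its limma p was 0.0377 and 0.0410. Gm25047 was at 16.5, 14.5 and 16.5 against 16.5, 12.4 and 15.2 FPKM, with overlapping groups and a ratio of 0.927 (0.677 to 1.27). These were the narrowest intervals among the 67 members, on the scale of their ratio. Together the 2 genes held 384 fragments, 17.9% of those of all members.

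Among snoRNA genes, Snord104, a C/D box RNA, was highest. It was at 7.89, 8.77 and 9.27 FPKM in control-FMT and 6.78, 13.0 and 10.9 in alcohol-FMT, on 8 to 17 fragments, with overlapping groups and a log2 fold change of 0.18 (SE 0.21). Gm25588, a predicted snoRNA gene inside Shcbp1l, was at 6.31, 7.58 and 8.85 against 9.32, 4.99 and 4.28 FPKM. Snord91a, a C/D box RNA by its symbol, though its sequence holds neither box in the windows searched, lies in Tsr1. It had 10, 5 and 18 fragments in control-FMT and 12, 2 and 16 in alcohol-FMT, a within-group spread 4.88 times what counting gives. None of these differences reached an unadjusted p of 0.05 with all 6 libraries. Without alcohol-FMT 18, the limma p was 0.0051 for Snord104 (log2 fold change 0.42) and 0.00379 for Gm25588 (-0.60), while Snord91a turned to 0.43 without alcohol-FMT 24 and to 0.13 without control-FMT 21.

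The remaining members of the 10 highest also overlapped between groups. Gm23027, which resembles Rnu1a1 at 75.0% and lies in K230010J24Rik, was at 4.54, 5.30 and 2.24 against 3.38, 3.06 and 11.7 FPKM, with 34 of its 52 alcohol-FMT fragments in alcohol-FMT 31. Gm22890, a predicted snoRNA gene, was at 3.45, 6.98 and 4.51 against 0.824, 4.47 and 7.94. Gm24120, another Snora17-like gene, was at 6.85, 5.63 and 2.29 against 3.68, 3.33 and 2.53. The log2 fold change of Gm23027 turned from 0.33 to -0.20 without alcohol-FMT 31, that of Gm22890 from -0.38 to 0.27 without alcohol-FMT 18, and that of Gm24120 was -0.42, or -0.80 with a limma p of 0.00177 without control-FMT 21. Gm24900, which resembles Snora61, was at 4.12, 6.25 and 3.08 against 1.33, 5.21 and 4.06. Over all members the median within-group spread was 1.44 times the counting error, against 3.41 over all genes tested, and it was over 2 times in 20 members.

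**Figure D4:**
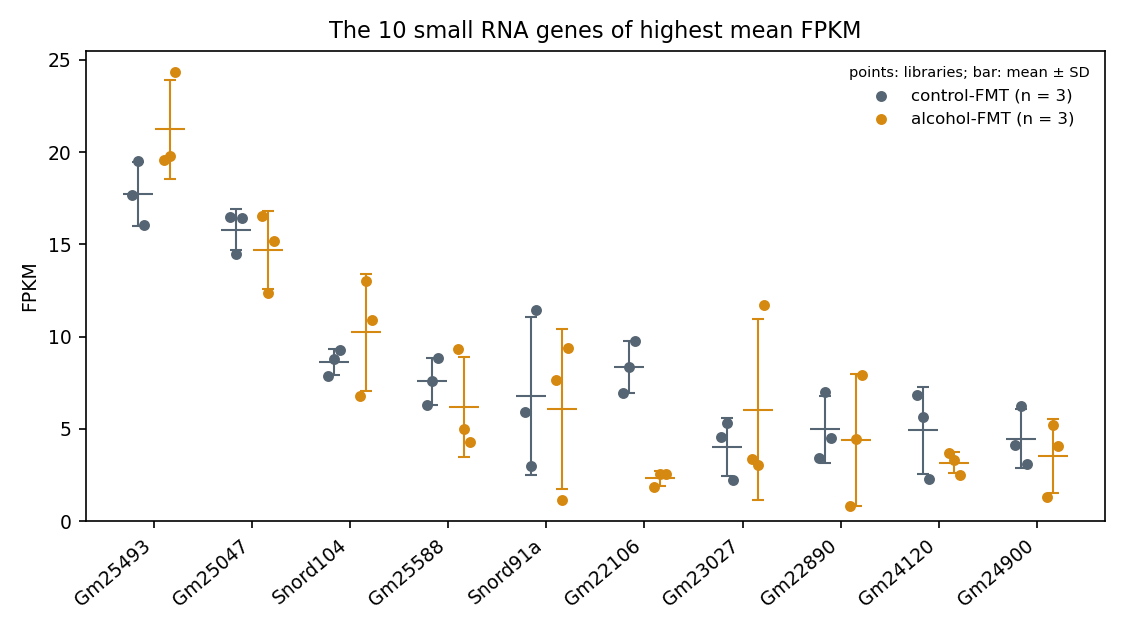
FPKM in each library for the 10 small RNA genes of highest mean FPKM, with points for libraries and bars for the mean and SD of 3. Gm22106 is the gene whose groups stand clear of each other, those of Gm25493 lie next to each other without overlap, and the other 8 overlap.

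Of the 67 members 46 lay inside another gene, 36 on its strand and 10 on the other strand only, and none overlapped an exon of it. The share inside a gene was 68.7%, against 52.3% of all 2943 genes. Those 46 lay in 44 distinct hosts. Host levels ran from 0 to 599.8 FPKM with a median of 11.4, the highest being Ybx3, which encodes a nucleic acid binding protein. Spearman's rho of member and host levels was -0.07 over the 46 members and -0.21 over the 36 on the host's strand. It is a description across genes measured in the same 6 libraries. Small RNA genes below a mean FPKM of 1 were left out by the rule. It therefore cannot show whether the levels of small RNA gene and host go together. Most members (38 of 46) were lower per length than their host.

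Ribosomal protein and translation genes, classical snoRNA hosts, are among them: 6 members lay in 5 ribosomal protein genes. Rpl37, the host of Snord72, was at 57.4 ± 1.6 FPKM (SD, n = 3) in control-FMT and 69.2 ± 4.6 (SD, n = 3) in alcohol-FMT, with an unadjusted p of 0.00738 and an adjusted p from limma of 0.59. Snord72 had 2, 3 and 2 against 2, 1 and 8 fragments. Of 38 hosts tested, 3 were higher at an unadjusted p of up to 0.05 (Rpl37 and Immp2l among them), and 0 were lower. The changes of member and host had a Spearman's rho of 0.05 over 40 members, again a description.

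Snord49a and Snord49b lie in introns of the same noncoding host, 2410006H16Rik, and match each other at 87.1% over 31 of their 72 bases. Snord49a had 2, 1 and 4 fragments in control-FMT and 2, 1 and 7 in alcohol-FMT, and with Snord49b the pair summed to 4, 4 and 8 against 4, 3 and 8. The host was at 21.0, 16.1 and 16.6 against 12.1, 28.2 and 26.5 FPKM. Neither the pair nor the host separated the groups. Snord58b and Gm23301 share the host Rpl17 and summed to 2, 4 and 2 against 3, 4 and 1 fragments.

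**Figure D5:**
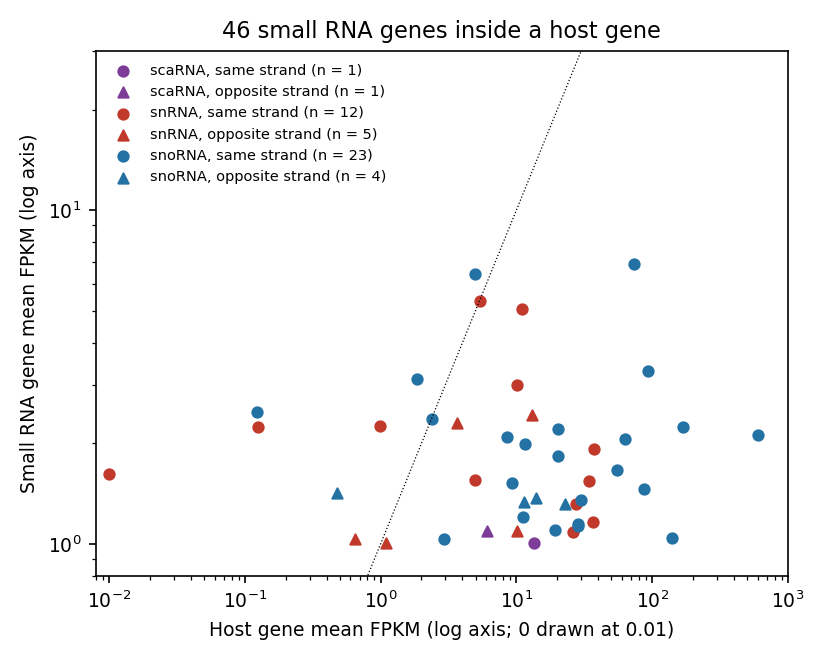
Mean FPKM of each of 46 small RNA genes against that of the gene it lies in, on log axes, with circles for the same strand, triangles for the opposite strand and the dotted line where the 2 levels are equal. Of the points 38 lie to the right of the line, and Gm10135, the host of Gm24776, is listed at 0 and drawn at 0.01.

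The proteins that package and process these RNAs are measured on far more fragments. Over 17 lists of such genes, 141 genes were tested, of which 8 were higher at an unadjusted p of up to 0.05 and 0 lower, beside 4.93% and 2.34% of all genes, with a median log2 fold change of 0.00 and a smallest adjusted p from limma of 0.59. In 12 of the 17 lists no gene passed the unadjusted p: the core C/D box and H/ACA box proteins, the U1 and U2 particles, the U7 particle, the SMN complex, cap and transport factors, SNAPc, Integrator, the 7SK particle, the noncoding snoRNA hosts, and RNA polymerase I and its factors.

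The Sm and LSm rings bind the snRNAs, the Sm ring most of them and the LSm ring U6. In the Sm ring 2 of 8 genes were higher and 0 lower, with a median log2 fold change of 0.18, and in the LSm ring 2 of 7 and 0, also with a median of 0.18, beside 4.93% higher, 2.34% lower and a median of 0.01 for all genes. The 2 lists are those of the 17 with the highest medians, so their order among the lists is a description. Snrpe, an Sm protein gene, was at 6.88, 5.17 and 8.30 FPKM against 15.3, 9.98 and 10.0, with no overlap and a log2 fold change of 0.71 (SE 0.20). Snrpf, another, was at 9.75, 6.94 and 9.25 against 14.5, 12.2 and 11, with 0.50 (SE 0.14). Their adjusted p from limma was 0.59 for each. Both kept an unadjusted p of up to 0.05 in each of the 12 alternatives tried. Lsm7 and Lsm4 were higher by 0.29 (SE 0.11) and 0.21 (SE 0.08), with an adjusted p from limma of 0.67 and 0.68. Neither passed the unadjusted p without alcohol-FMT 24 or 31 or without control-FMT 19 or 21. In all, Lsm7 lost it in 5 and Lsm4 in 7 of the 12 alternatives. Without alcohol-FMT 18 the Sm ring count was 5 of 8, in a setting where 12.2% of all genes were higher against 4.93% with all libraries.

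Single genes of other lists were Ruvbl1, a helicase of snoRNP assembly, at 0.24 (SE 0.08), Sart1, of the U4/U6 and U5 particle, at 0.29 (SE 0.09), and the minor spliceosome genes Zmat5 and Snrnp25 at 0.28 (SE 0.11) and 0.46 (SE 0.17). None of the 8 passed an adjusted p of 0.05, and Ruvbl1, Sart1, Zmat5 and Snrnp25 lost the unadjusted p without at least 1 library, alcohol-FMT 24 among them.

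Rn7sk, the 7SK RNA that holds the elongation factor P-TEFb inactive, has another biotype and was picked with its values known. It was at 2.50, 6.58 and 2.32 FPKM in control-FMT and 10.2, 1.62 and 1.32 in alcohol-FMT, on 8 to 57 fragments. The libraries within each group lay further apart than the group means.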

How the data were processed

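Testis RNA of 3 control-FMT and 3 alcohol-FMT mice was analysed, 1 library per mouse. The authors deposited FPKM values per gene; the methods name TopHat2, the submitters' processing notes name HISAT2 2.0.5 with the builds mm10 and mm8, and gene positions are those of GRCm38. Fragments were recovered as FPKM times length in whole steps (100% of values within 0.01), and all 6 value columns were used. The deposited FPKM values at a mean of at least 1 were tested on log2(FPKM + 1) with limma 3.58.1 in R 4.3.3, with a mean-variance trend and Benjamini-Hochberg adjustment over 15206 genes, and limma-voom was run on the fragments. The limma test was checked on simulated data. Small RNA sequences (2941 genes) were compared with BLAST 2.17.0 at an E-value of 0.001. Fragment ratios carry exact 95% intervals that cover counting error only, as do limits for counts of 0.

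Members and gene lists were chosen with earlier results of these data known. Named were the 10 members of highest FPKM and of most fragments, the 5 higher and 5 lower of smallest p, 3 on each side of the threshold, hosts of these, and up to 3 genes per list. Gm25703, Gm27343, Rnu genes, Rn7sk, Snord49a, Snord49b, Snord58b, Gm23301 and the hosts Ybx3, Rpl37 and Immp2l, with Snord72, were picked with their values known. The alternatives were limma-voom, library totals, 10 fragments in 3 libraries, no filter, a pseudocount of 0.1, removal of a length trend, and leaving out each library. Some items are not reported here.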

Additional observations from a re-analysis of the deposited data

How the results depend on the processing

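No member passed the adjusted p under any of the 12 alternatives. The count of members higher at an unadjusted p of up to 0.05 was 1, and ran from 0 to 3 with 1 library left out. It was 0 with at least 10 fragments in 3 libraries, library totals, limma-voom, no filter and a pseudocount of 0.1. Of all genes 4.26, 2.95, 4.35, 3.09 and 4.83% were higher in those settings in turn, and 2.70 to 12.2% with 1 library left out. The count of lower members was 6, and ran from 4 to 9 with 1 library left out. It was 1 with at least 10 fragments in 3 libraries, where only 9 members were left to test, and 2 with limma-voom. Of all genes 2.88% and 2.97% were lower in those settings in turn, and 1.47 to 5.56% with 1 library left out. The median log2 fold change of the members, -0.09, ran from -0.19 to -0.00 with 1 library left out and was -0.28 with at least 10 fragments in 3 libraries. Gm22106 kept its direction and its unadjusted p in 12 of 12 alternatives and Gm25596 in 11 of 11, though the direction of Gm25596 was built into its choice, as it passed the filter only through the control-FMT group. With 1 library left out, the log2 fold change changed sign within its range for Gm25047 (-0.19 to 0.0059), Snord104 (-0.0018 to 0.42), Snord91a (-0.70 to 0.43), Gm23027 (-0.20 to 0.63), Gm22890 (-0.88 to 0.27) and Gm24900 (-0.64 to 0.072); the cause was not tested. No paired analysis was possible because the replicate numbers of the groups share none. Depth limits the precision, as 47 of 67 members averaged under 5 fragments per library. With 3 mice per group, the p-values compare the group difference with a spread between libraries that also holds counting error.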
